A study of Mus musculus with 8 samples.

Results

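The time-of-day change in the cortex of mice lacking both SHARP1 and SHARP2 (S1/2-/-) was examined on the 4 arrays labelled with this genotype, 2 from mice harvested at ZT4 and 2 at ZT16, out of 8 arrays in all. ZT, zeitgeber time, counts hours from light onset, so that under the 12 h light and 12 h dark cycle ZT4 lies in the light phase, when mice mostly rest, and ZT16 in the dark phase. The other 4 arrays are from wildtype (WT) mice at the same times, and their ZT16 to ZT4 change uses none of the S1/2-/- arrays. All mice are labelled C57/bl6 and 4 months of age. They were housed in groups and received no treatment besides the light cycle, and cortex was cut from a coronal block. The study describes the cortices as those of individual mice, so that replicate arrays are separate animals. With 2 arrays per group, their number limits the precision of every value below.

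SHARP1 (BHLHE41, also DEC2) and SHARP2 (BHLHE40, also DEC1) are basic helix-loop-helix transcription factors that repress genes through E-box sequences. The same E-boxes are bound by the activators CLOCK and BMAL1 (gene symbol *Arntl*), which drive the *Per* and *Cry* genes, whose products repress CLOCK and BMAL1 in turn. SHARPs therefore form a second repressive arm of the circadian loop, and the question addressed here is which transcripts still differ between the light and the dark phase when that arm is missing. Beyond the clock, cortical transcripts follow time of day through wakefulness and neuronal activity, through glucocorticoids and through body temperature.

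Of 34 clock and clock output genes listed, 26 had a promoter window in the RefSeq table (GRCm38.p6), which covers 250 bases before to 50 bases after each transcript start. The canonical E-box CACGTG, which reads the same on both strands, was found in windows of 5 of them, namely *Per1*, *Cry1*, *Tef*, *Ciart* and *Prok2*, and it occurs in 8.09% of 27025 genes with a window and in 7.15% of all 32851 windows. *Per1* has a further window at a downstream start, chr11:69099902-69100201 (+), without this E-box. The stretches around the E-box are shown for *Per1*, *Cry1* and *Tef*, whose ZT16 signals are described next, with the E-box in capitals and 40 bases on either side, 5′ to 3′ on the strand of the gene. They lie at chr11:69098743-69098828 (+), chr10:85185069-85185154 (-) and, for the 2 starts of *Tef*, at chr15:81802506-81802591 (+) and chr15:81811236-81811321 (+), with the E-box beginning at positions -166, -60, -127 and -138 relative to the transcript start.
Per1: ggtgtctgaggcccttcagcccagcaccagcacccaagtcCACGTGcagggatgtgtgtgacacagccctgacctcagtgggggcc
Cry1: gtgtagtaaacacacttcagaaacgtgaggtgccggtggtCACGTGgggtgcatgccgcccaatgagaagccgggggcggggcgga
Tef, upstream start: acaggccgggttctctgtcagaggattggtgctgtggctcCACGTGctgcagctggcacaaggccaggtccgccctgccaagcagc
Tef, downstream start: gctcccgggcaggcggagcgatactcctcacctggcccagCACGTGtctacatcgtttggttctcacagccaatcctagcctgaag
The cAMP response element TGACGTCA was found in windows of *Hlf* alone among these genes, against 2.03% of all genes, and the D-box TTATGTAA, searched on both strands, in those of *Per3* and *Timeless*, against 1.11%. These matches describe the letters in the windows and not occupied sites. *Per2* and *Csnk1d* are among the 8 genes not in the table.

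The signals are linear MAS5 values scaled by the authors to a common level, and the change at ZT16 is given as the difference of mean log2 signals, ZT16 minus ZT4, with its standard error (SE) from limma fitted over all 8 arrays. Replicate arrays correlated at 0.961 (ZT4) and 0.965 (ZT16) in S1/2-/- cortex over the 7453 probe sets tested. The probe set for *Bhlhe40*, which encodes SHARP2, gave signals of 913 and 834 at ZT4 against 1043 and 889 at ZT16 in S1/2-/- cortex, and 983 to 1285 on the WT arrays. No source used here places this probe set relative to the deleted part, so the signal does not check the genotype, and *Bhlhe41* was not analysed here for lack of an annotated probe set. Of the cortical markers on the array, 14 of 15 for projection neurons and 18 of 21 for interneurons passed the intensity filter. The filter was passed by 5690 of all 8251 genes with a probe set and by 7 of 11 striatal neuron markers. Passing it therefore does not identify the tissue.

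At the threshold of a fold over 1.5 and a Benjamini-Hochberg adjusted p under 0.05, limma called 0 of 7453 probe sets (0%) between ZT16 and ZT4 in S1/2-/- cortex, and the smallest adjusted p was 0.402. An ordinary ANOVA on the filtered log2 signals, adjusted the same way, also called 0. The paper reports *Per1*, *Per2*, *Cry1*, *Anln* and *Hspa1b* as upregulated in the mutant cortex in the dark phase. Its exact procedure was not reproduced here, so the lack of calls does not test that report. The limma fit gave 545 probe sets at an unadjusted p under 0.05, 323 of them higher and 222 lower at ZT16. No gene below is therefore a change that passed the threshold. The genes are described through a second, looser rule, a fold over 1.5 with an unadjusted p under 0.05, which 129 probe sets (1.73%) met in the direction of higher signal at ZT16 and 81 (1.09%) in the direction of lower signal. In WT cortex the looser rule was met by 136 higher (1.82%) and 121 lower (1.62%), and 1 probe set was called. Higher probe sets made up 61.4% of those past the looser rule, but 48.4% (104 higher, 111 lower) after centring each array on its median. Without S1/2-/- ZT4 replicate 2, 247 were higher. Without S1/2-/- ZT16 replicate 2, 124 were lower. Low signals were common among the probe sets past the looser rule, 49.5% of them having a mean log2 signal below 8 against 27.4% of all tested. A mean signal over 1000 was found in 14 of the 210 (6.67%), against 25.5% of all tested.

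The clock genes *Per2*, *Per1*, *Cry1* and *Tef* stood higher at ZT16 than at ZT4 in every S1/2-/- array comparison and in the same direction in WT cortex. *Per2*, which encodes a repressor of the negative limb, had signals of 96.1 and 158 at ZT4 and of 300 and 288 at ZT16. Both dark-phase arrays lay above both light-phase arrays, and the difference was 2.39-fold (log2 1.26 ± 0.31 SE, adjusted p = 0.458) in S1/2-/- and 1.12 on the log2 scale in WT cortex. *Per1*, its paralog, also induced by neuronal activity and glucocorticoids, gave 423 and 527 at ZT4 and 1004 and 620 at ZT16, without overlap but with the ZT16 arrays far apart (log2 0.74 ± 0.25, adjusted p = 0.552; WT 0.62). *Cry1*, which encodes the cryptochrome that pairs with PER proteins, gave 459 and 626 at ZT4 and 919 and 677 at ZT16 (log2 0.56 ± 0.22, adjusted p = 0.632; WT 0.98). *Tef*, a PAR-bZIP activator acting on D-boxes downstream of the clock, gave 1808 and 2426 at ZT4 and 2982 and 3289 at ZT16 (log2 0.58 ± 0.15, adjusted p = 0.458; WT 0.45).

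The change in S1/2-/- minus that in WT cortex was 0.14 ± 0.44 (SE) for *Per2*, 0.12 ± 0.35 for *Per1*, -0.43 ± 0.31 for *Cry1* and 0.13 ± 0.22 for *Tef* on the log2 scale, with adjusted p of 0.912 to 0.972. With errors of this size, these values neither show a difference between the genotypes nor show that they are alike. For the activator *Arntl* the changes in the genotypes had opposite signs. Its signals were 506 and 522 at ZT4 against 689 and 640 at ZT16 in S1/2-/- cortex, without overlap (log2 0.37 ± 0.15, adjusted p = 0.648). In WT cortex they were 702 and 599 at ZT4 and then 591 and 544 at ZT16 (log2 -0.19 ± 0.15). The difference between these changes was 0.56 ± 0.22 (adjusted p = 0.827), which does not pass the threshold either. *Arntl* is known to peak in antiphase to the *Per* genes.

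**Figure D1:**
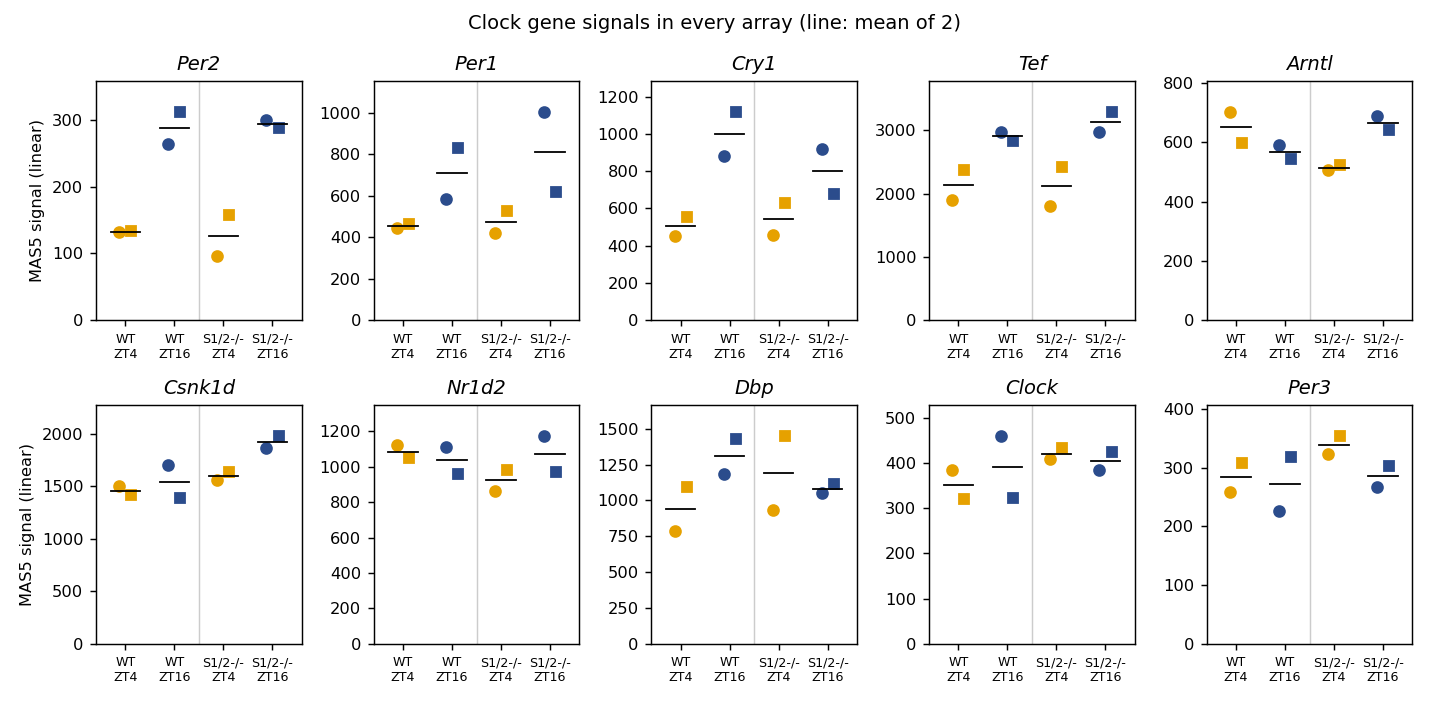
Linear MAS5 signal (vertical axis, from 0) of 10 clock genes in each of the 8 arrays, ZT4 in yellow and ZT16 in blue, with circles for replicate 1, squares for replicate 2 and a line at the mean of 2 arrays. In S1/2-/- cortex the *Per2* arrays lie at 96.1 and 158 at ZT4 and at 300 and 288 at ZT16, while *Dbp*, *Clock* and *Nr1d2* overlap between the times.

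Of 16 core clock genes tested, taking the brightest probe set of each, 10 were higher and 6 lower in S1/2-/- cortex at ZT16. Their median log2 change was 0.24, against -0.0042 over all 5690 genes and -0.07 for the same 16 genes in WT cortex. An unadjusted p under 0.05 was reached by 4 of the 16 in the higher direction (*Per2*, *Per1*, *Cry1* and *Arntl*) and by 0 in the lower direction, where 4.48% and 2.88% of all genes reached it. The median was 0.13 without S1/2-/- ZT4 replicate 2. No other core clock gene reached this p. *Csnk1d*, the casein kinase that phosphorylates PER proteins, gave 1558 and 1637 at ZT4 and 1865 and 1979 at ZT16 on its brightest probe set (log2 0.27 ± 0.13), without overlap, and its other probe sets gave 0.42 ± 0.37, -0.11 ± 0.19 and -0.83 ± 0.82. The nuclear receptor gene *Nr1d2* gave 862 and 984 against 1175 and 972, and *Npas2*, an activator related to *Clock*, gave 293 and 50.1 against 255 and 202, so that its value of 0.91 ± 0.66 rested on 1 low array. *Per3* (log2 -0.25 ± 0.24), *Clock* (-0.06), *Cry2* (-0.06), *Nr1d1* (-0.10) and *Rora* (-0.03) had values within their errors or close to them.

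The 8 clock output genes, 4 higher and 4 lower, had a median of -0.04 (WT 0.22), and *Tef* alone reached an unadjusted p under 0.05. *Dbp*, a direct E-box target and the closest relative of *Tef*, gave 936 and 1451 at ZT4 against 1049 and 1118 at ZT16 in S1/2-/- cortex, so that the times overlapped (log2 -0.11 ± 0.22), and 0.49 in WT cortex. The difference between the genotypes was -0.59 ± 0.31 (adjusted p = 0.875). *Usp2*, a ubiquitin protease under clock control, was lower on both of its probe sets, at -0.29 ± 0.12 and -0.17 ± 0.12.

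Genes outside the clock with the lowest p among those over 1.5-fold were of mixed function. *H1f10*, a linker histone, gave 561 and 576 at ZT4 and 943 and 959 at ZT16 (log2 0.74 ± 0.15, adjusted p = 0.402), and the WT arrays lay between 551 and 724. *Tcf3*, which encodes the E-box-binding E proteins E12 and E47, gave 121 and 77.1 at ZT4 and 294 and 304 at ZT16 (log2 1.63 ± 0.33, adjusted p = 0.402), with WT at 0.80. *Timp1*, an inhibitor of matrix metalloproteinases, gave 237 and 297 at ZT4 and 646 and 474 at ZT16 (log2 1.06 ± 0.22, adjusted p = 0.427). In these 3 genes both ZT16 arrays lay above both ZT4 arrays, which their choice by low p favours.

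*Rprd1a* and *Supt6*, which act with RNA polymerase II, had log2 changes of 0.73 ± 0.16 and 0.73 ± 0.17, *B4galt2*, a galactosyltransferase, of 0.80 ± 0.19, and *Dxo*, an enzyme that removes faulty RNA caps, of 0.79 ± 0.19. *Cystm1* gave 913 and 788 at ZT4 and 1758 and 1220 at ZT16 (log2 0.79 ± 0.18). The other higher genes, like *Tcf3* above, rested on dim ZT4 arrays. The chloride channel gene *Clcn1* gave 71.5 and 103 at ZT4 and 251 and 268 at ZT16, and *Pou2f2*, which encodes the OCT2 transcription factor, gave 52.3 and 60.2 at ZT4 and 200 and 165 at ZT16. For both genes the S1/2-/- ZT4 arrays were the lowest of all 8, the WT arrays spanning 169 to 212 for *Clcn1* and 124 to 242 for *Pou2f2*. *Flt1*, the VEGF receptor 1 gene, had the largest value of this group on 1 probe set (log2 2.10 ± 0.47), but a second probe set gave 303 and 344 at ZT4 and 416 and 283 at ZT16 (log2 0.09 ± 0.25).

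**Figure D2:**
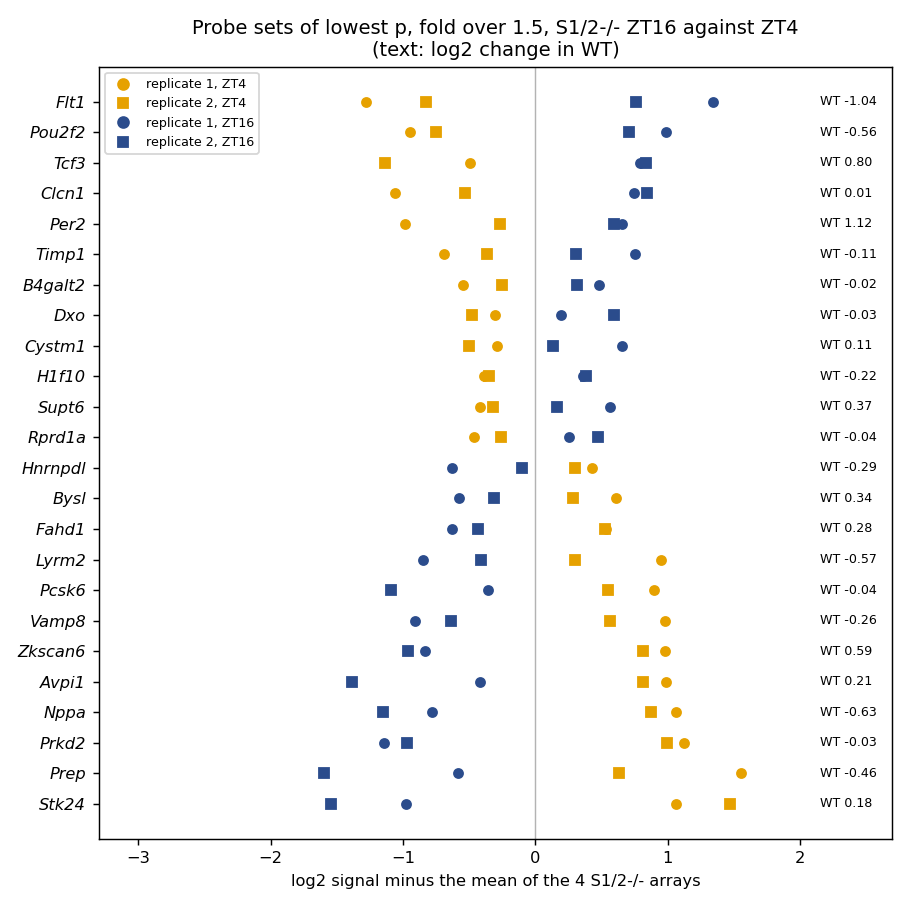
Log2 signal of each S1/2-/- array minus the mean of the 4 (horizontal axis) for the 12 higher and 12 lower probe sets of lowest p over 1.5-fold, ZT4 in yellow and ZT16 in blue, circles for replicate 1 and squares for replicate 2, with the WT log2 change printed at the right. These probe sets were chosen for this separation. *Per2* (WT 1.12) and *Tcf3* (WT 0.80) have the highest WT values.

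Among lower genes, *Prkd2*, which encodes protein kinase D2, had the lowest p, with 333 and 305 at ZT4 and 69.3 and 78 at ZT16 (log2 -2.12 ± 0.33, adjusted p = 0.402), while its second probe set gave -0.16 ± 0.39. *Fahd1*, a mitochondrial oxaloacetate decarboxylase, gave 587 and 585 at ZT4 and 261 and 301 at ZT16 (log2 -1.06 ± 0.19, adjusted p = 0.402), against 431 to 611 on the WT arrays. *Avpi1*, named for its induction by vasopressin, gave 312 and 276 at ZT4 and 118 and 60.2 at ZT16 (log2 -1.80 ± 0.34). All 4 WT values of *Avpi1*, 278 to 420, lay above its S1/2-/- ZT16 values.

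The zinc finger gene *Zkscan6* (log2 -1.80 ± 0.36), the peptidase gene *Prep* (-2.18 ± 0.49), the atrial natriuretic peptide gene *Nppa* (-1.94 ± 0.48), the proprotein convertase gene *Pcsk6* (-1.45 ± 0.37) and *Lyrm2* (-1.25 ± 0.30) all had ZT16 signals of 160 or lower. *Bysl*, required for making the small ribosomal subunit, gave 661 and 528 at ZT4 and 291 and 350 at ZT16 (log2 -0.89 ± 0.23). Probe sets of 2 further genes went apart: *Stk24*, a kinase gene, had -2.53 ± 0.52 on one and 0.25 ± 0.21 on another, and *Vamp8*, a vesicle fusion gene, had -1.55 ± 0.37 and 0.003 ± 0.18. Of the 210 probe sets past the looser rule, 63 belonged to genes with another tested probe set. For 10 of these 63 another probe set had an unadjusted p under 0.05 in the same direction, and for 42 another had the same sign. The same counts were not made over all genes with several tested probe sets, so these are no measure of agreement.

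Abundant transcripts had smaller but more even differences. Those named here were the 8 higher and 8 lower of lowest p with a geometric mean signal over 1000. *Mt3*, the metallothionein of brain that binds zinc, gave 4056 and 4610 at ZT4 and 6193 and 5847 at ZT16 (log2 0.48 ± 0.09, adjusted p = 0.402), while all 4 WT arrays lay between 4922 and 5090. *Hspa5*, the endoplasmic reticulum chaperone BiP, gave 2657 and 2171 at ZT4 and 3821 and 3330 at ZT16 (log2 0.57 ± 0.12, adjusted p = 0.441; WT 0.20). *Pdxk*, the kinase that makes active vitamin B6, gave 2604 and 2633 at ZT4 and 3727 and 3660 at ZT16 (log2 0.50 ± 0.11, adjusted p = 0.458; WT 0.29). In all 3 genes the times did not overlap in S1/2-/- cortex, which their choice by low p likewise favours.

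*Nell2*, a secreted neuronal glycoprotein gene (log2 0.44 ± 0.11), *Spred2*, an inhibitor of Ras signalling (0.58 ± 0.14), and *Thra*, the thyroid hormone receptor alpha gene (0.40 ± 0.10), were also higher without overlap. The matrix proteoglycan gene *Spock2* gave 0.52 ± 0.12 on its bright probe set and -0.44 ± 0.19 on a dim one, opposite in sign. On the lower side, *Stmn4*, a stathmin that binds tubulin, gave 3356 and 3416 at ZT4 and 2536 and 2610 at ZT16 (log2 -0.40 ± 0.09, adjusted p = 0.458; WT -0.26). *Hnrnpdl*, which encodes an RNA-binding protein, gave 4519 and 4060 at ZT4 and 2932 and 3421 at ZT16 on one probe set and 1151 and 1050 against 552 and 798 on another (log2 -0.44 ± 0.11 and -0.73 ± 0.18; WT -0.28 and -0.29). Both probe sets of *Hnrnpdl* were thus lower at ZT16 in both genotypes.

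*Stard10*, a lipid transfer protein gene (log2 -0.45 ± 0.12), *Tmem165*, of the Golgi (-0.46 ± 0.12), *Ociad1* (-0.55 ± 0.14), and *Ndfip2*, an adaptor of ubiquitin ligases (-0.60 ± 0.16), were lower at ZT16 in both S1/2-/- arrays, with WT values of -0.18 to 0.11. The ubiquitin ligase gene *Mkrn1* gave -0.42 ± 0.11 on one probe set and 0.0097 ± 0.16 on the other, and *Cnbp*, a nucleic acid-binding protein gene, gave -0.32 ± 0.09 and -0.12 ± 0.11.

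Of 936 genes with at least 2 tested probe sets, 12 had 2 or more with an unadjusted p under 0.05 in the same direction in S1/2-/- cortex. *Chst2*, a sulfotransferase of glycans, was higher on both probe sets (log2 0.41 ± 0.15 and 0.41 ± 0.14), as was *Tbrg4*, a mitochondrial RNA-binding protein gene (0.56 ± 0.22 and 0.74 ± 0.26). The potassium channel beta subunit gene *Kcnab1* was lower on both, with 1346 and 1282 at ZT4 and 796 and 901 at ZT16 on the brighter one (log2 -0.63 ± 0.18, WT 0.42) and -1.01 ± 0.27 on the other (WT -0.55). *Ctse* and *Flii* were also higher, and *Spsb1*, *Nrsn1* and *Clic4* lower, on at least 2 probe sets each.

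*Mobp*, a myelin protein gene of oligodendrocytes, was lower at ZT16 on all 4 of its probe sets in S1/2-/- cortex and higher on all 4 in WT cortex. Its brightest probe set gave 6702 and 6494 at ZT4 against 4971 and 5694 at ZT16 in S1/2-/- cortex, and 3651 and 3968 at ZT4 and then 5254 and 4869 at ZT16 in WT cortex. At ZT4 the S1/2-/- arrays thus lay above all 4 WT arrays. The changes differed by -0.72 ± 0.14 (adjusted p = 0.466) on this probe set and by -0.53 to -0.81 on the others. *Dda1*, of a ubiquitin ligase complex, had 3 probe sets at 0.33, 0.42 and 0.84, and others at 0.03 and -0.15. The 3 probe sets of *Gnb1*, a G protein beta subunit gene, were higher (log2 0.93 to 1.37), but this gene also varied widely within groups, with 3306 and 6808 at ZT4 and 7931 and 10269 at ZT16 on the brightest.

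The WT arrays share no sample with the S1/2-/- arrays, so the genes that moved in both were read side by side. These genes were chosen after their values were seen. The p-values of both changes rest on the same error estimate for each probe set, fitted over the arrays of both genotypes. A probe set with a small error passes more readily in both genotypes, so the counts by p below do not come from independent tests. Across the tested probe sets the 2 sets of changes correlated weakly, with Pearson r = 0.11 and Spearman rho = 0.14, as a description over genes that are not independent. An unadjusted p under 0.05 in both genotypes was reached by 49 probe sets (0.657%) in the same direction, 32 of them higher and 17 lower at ZT16, and by 20 (0.268%) in opposite directions. With the fold of 1.5 added, 12 probe sets were higher in both, which is 9.3% of those in S1/2-/- and 8.82% of those in WT cortex. Another 2 were lower in both, 2.47% and 1.65% of the 2 lists, and 5 went opposite ways.

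Besides *Per1*, *Per2*, *Cry1*, *Tef*, *Tcf3*, *Pdxk*, *Stmn4* and *Hnrnpdl*, the shared genes included *Wbp1*, with 1047 and 1091 at ZT4 and 1663 and 1439 at ZT16 (log2 0.53 ± 0.15; WT 0.57), and *Wls*, which carries Wnt proteins to the cell surface, with 595 and 634 at ZT4 and 403 and 425 at ZT16 (log2 -0.57 ± 0.15; WT -0.60). *Mfsd4a*, a transporter gene, gave 984 and 978 at ZT4 and 720 and 715 at ZT16 (log2 -0.45 ± 0.13; WT -0.43). These pairs were close within each time. The proteoglycan gene *Bcan* (0.37; WT 0.27), the chaperone genes *Manf* (0.43; WT 0.61) and *Chordc1* (0.35; WT 0.33) and the stress factor gene *Xbp1* (0.33; WT 0.47) were higher in both. The splicing factor gene *Srsf5* (-0.29; WT -0.32), the helicase gene *Ddx3x* (-0.40; WT -0.53), the phosphodiesterase gene *Pde1a* (-0.61; WT -0.52) and the neuropeptide Y receptor gene *Npy1r* (-0.57; WT -0.70) were lower in both. Dimmer probe sets of *Bcan* (-0.66) and *Ddx3x* (0.11) had values of the opposite sign in S1/2-/- cortex.

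**Figure D3:**
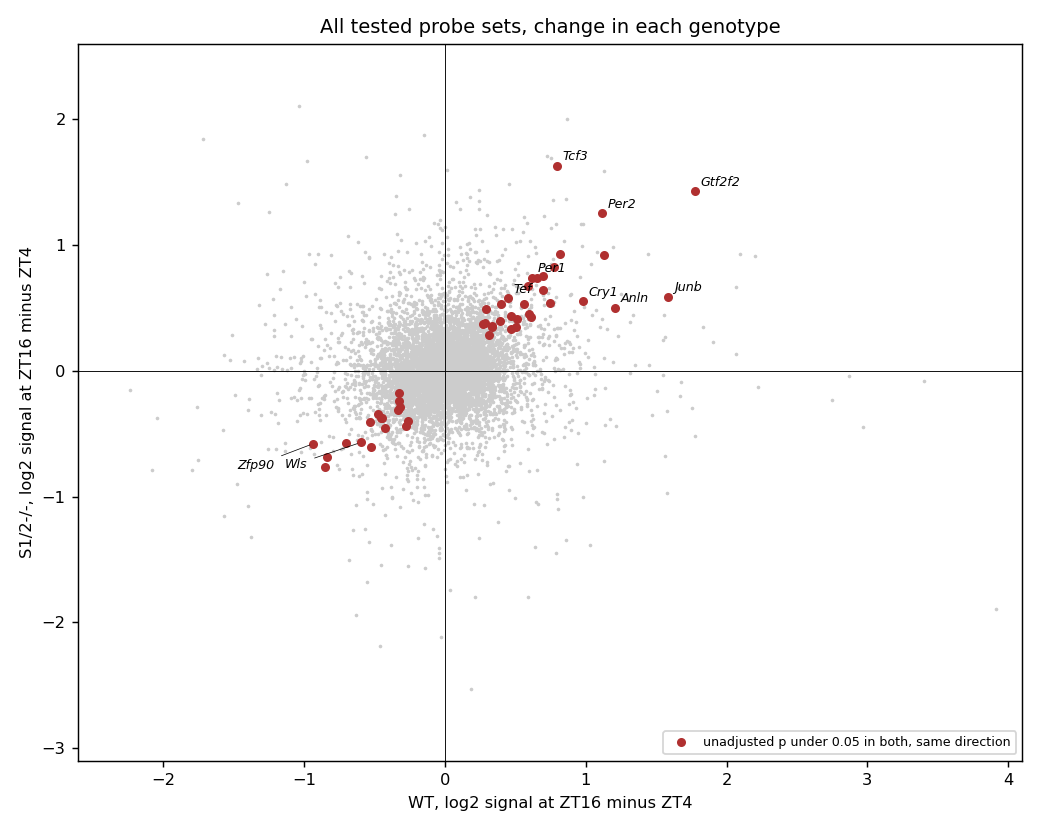
Log2 change at ZT16 minus ZT4 in WT (horizontal axis) and S1/2-/- cortex (vertical axis) of the 7453 probe sets tested, in grey, with those of unadjusted p under 0.05 in both and 1 gene symbol in red. Most grey points spread without a common direction (r = 0.11), and *Per2*, *Tcf3* and *Per1* lie at the upper right, *Wls* and *Zfp90* at the lower left.

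Protein folding genes included several members with higher values. Of 26 endoplasmic reticulum chaperone and stress genes 16 were higher and 10 lower, and the median log2 change was 0.12 (WT 0.07). *Hspa5*, *Manf* and *Xbp1* reached an unadjusted p under 0.05 in the higher direction (11.5%, against 4.48% of all genes) and 0 genes in the lower one (2.88%). *Manf*, a secreted factor induced by endoplasmic reticulum stress, gave 814 and 721 at ZT4 and 1135 and 936 at ZT16. The median was 0.02 without S1/2-/- ZT16 replicate 1, so that 1 array held much of it.

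Among 27 heat shock and cytosolic chaperone genes, which had a median of 0.02 (WT -0.03), 15 were higher and 12 lower, and 3 (11.1%) reached an unadjusted p under 0.05, all higher, against 4.48% of all genes. *Hspa1b*, the inducible HSP70 gene that follows temperature and stress, gave 170 and 195 at ZT4 and 632 and 265 at ZT16, without overlap but with the ZT16 arrays far apart (log2 1.17 ± 0.36, adjusted p = 0.539; WT 0.79). *Dnajb5*, of the HSP40 family, gave 383 and 338 at ZT4 and 561 and 702 at ZT16 (log2 0.80 ± 0.25, adjusted p = 0.539; WT 0.15). *Chordc1*, a partner of HSP90, is given above. The cold-inducible *Cirbp* had -0.09 ± 0.17 (WT -0.38).

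Immediate early genes, transcribed rapidly after neuronal firing, had a median of 0.04 in S1/2-/- cortex over 29 genes (16 higher, 13 lower) and of 0.20 in WT cortex. *Junb* and *Egr2* reached an unadjusted p under 0.05 in the higher direction (6.9%, against 4.48% of all genes), and 0 in the lower one (2.88%). *Junb*, of the AP-1 family, gave 500 and 336 at ZT4 and 607 and 626 at ZT16 on the brighter probe set (log2 0.59 ± 0.23, adjusted p = 0.632; WT 1.59), but -0.23 ± 0.45 on the dimmer one. *Egr2*, a zinc finger factor, gave 223 and 131 at ZT4 and 383 and 261 at ZT16 (log2 0.89 ± 0.36, adjusted p = 0.643; WT 0.77).

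*Egr1* and *Ier2* did not overlap between the times and went opposite ways in S1/2-/- cortex. *Egr1*, a zinc finger factor like *Egr2*, gave 2374 and 2775 at ZT4 and 3767 and 3225 at ZT16 (log2 0.44 ± 0.29; WT 1.33), and *Ier2* gave 394 and 294 against 255 and 229 (-0.49 ± 0.23; WT 0.95). The times overlapped for the 3 genes given next. *Fos* gave 476 and 264 at ZT4 and 445 and 341 at ZT16 (log2 0.13 ± 0.37; WT 2.07). *Nr4a1*, a nuclear receptor gene, gave 1371 and 679 against 883 and 930 (-0.09 ± 0.31; WT 1.68). *Dusp1*, a MAP kinase phosphatase gene, gave 1616 and 1009 against 1149 and 1082 (-0.20 ± 0.19; WT 1.67). In each of these 3 genes ZT4 replicate 1 was the highest of the 4 S1/2-/- arrays, and both ZT4 arrays were higher than or within the range of the WT ZT4 arrays. The changes differed between the genotypes by -1.86 ± 0.27 for *Dusp1* (adjusted p = 0.294), the smallest adjusted p of that comparison, in which 0 of 7453 probe sets were called and 424 had an unadjusted p under 0.05.

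Glucocorticoid-responsive genes had a median of 0.03 over 18 genes (WT 0.08). Leaving out S1/2-/- ZT4 replicate 2 turned the S1/2-/- median to -0.12, and leaving out ZT16 replicate 2 raised it to 0.18. *Per1* and *Fkbp5*, a co-chaperone of the glucocorticoid receptor, reached an unadjusted p under 0.05, both higher (11.1%, against 4.48% of all genes). *Fkbp5* gave 184 and 317 at ZT4 and 433 and 348 at ZT16 (log2 0.68 ± 0.30, adjusted p = 0.675). Of the 4 genes *Mt1*, *Mt2*, *Mt3* and *Mtf1*, the last encoding the regulator of the metallothioneins, 3 were higher, and *Mt3* alone reached an unadjusted p under 0.05.

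Genes of mitochondria, protein turnover and translation were mostly lower, by small differences. Oxidative phosphorylation genes had a median log2 change of -0.09, with 47 of 63 lower (WT 0.03, 24 of 63 lower), beside 50.9% lower over all genes. An unadjusted p under 0.05 in the lower direction was reached by 3 of the 63 (4.76%, against 2.88% of all genes), *Uqcrh* of complex III and *Ndufa5* and *Ndufa9* of complex I. *Uqcrh* gave 3664 and 3722 at ZT4 and 3019 and 3044 at ZT16 (log2 -0.28 ± 0.09, adjusted p = 0.539), the WT arrays lying between 3493 and 3795.

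Proteasome genes had a median of -0.10 with 27 of 33 lower (WT -0.07, 22 of 33 lower). *Psmb6*, a catalytic subunit of the core particle, gave 1106 and 999 at ZT4 and 816 and 724 at ZT16 (log2 -0.45 ± 0.15), and *Psmd12*, of the lid, had -0.40 ± 0.16. *Psmd5*, an assembly chaperone, went the other way with 778 and 762 at ZT4 and 970 and 1024 at ZT16 (log2 0.37 ± 0.14). Cytosolic ribosomal protein genes had a median of -0.09 with 19 of 26 lower (WT 0.05), led by *Rpl22* (-0.56 ± 0.20) and *Rps3a1* (-0.20 ± 0.08), while *Rpl37a* was higher (0.32 ± 0.12). No member of these 3 groups reached the 1.5-fold rule with an unadjusted p under 0.05. The medians ranged over the alternatives from -0.14 to -0.07 for oxidative phosphorylation, from -0.14 to -0.07 for the proteasome and from -0.15 to -0.02 for ribosomal proteins.

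Cholesterol synthesis genes had a median of -0.21 with 10 of 16 lower (WT -0.05). *Hmgcs1*, which makes the precursor of mevalonate, gave 3375 and 3039 at ZT4 and 2214 and 2868 at ZT16 (log2 -0.35 ± 0.14; WT -0.47), and *Idi1*, an isomerase acting later in the pathway, gave 1215 and 1093 at ZT4 and 867 and 991 at ZT16 (log2 -0.31 ± 0.14; WT -0.33). The times did not overlap for either enzyme in either genotype. The median was -0.01 without S1/2-/- ZT4 replicate 1, the array with the highest values of this list.

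Of 19 neuropeptide precursor and granin genes 15 were lower, with a median of -0.21 (WT 0.01). *Chgb*, a granin of dense-core vesicles, gave 11168 and 10639 at ZT4 and 8138 and 9652 at ZT16 (log2 -0.30 ± 0.12, adjusted p = 0.643), and *Scg3* and *Scg2* had -0.24 ± 0.13 and -0.21 ± 0.12. Synaptic vesicle genes went both ways, 15 higher and 14 lower, with 4 (13.8%) and 3 (10.3%) at an unadjusted p under 0.05, against 4.48% and 2.88% of all genes. *Sncb*, beta-synuclein, gave 1480 and 1979 at ZT4 and 2923 and 2197 at ZT16 (log2 0.57 ± 0.18), *Syn2*, a synapsin, had 0.34 ± 0.11, and *Syngr1*, a vesicle membrane protein gene, had -0.56 ± 0.20. *Bsn*, of the active zone, gave 82.6 and 63.2 at ZT4 and 198 and 207 at ZT16, low signals with a WT change of the opposite sign (-1.13).

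Among 17 glutamate and GABA receptor genes 11 were lower and 6 higher (median -0.12, WT -0.08), and the kainate receptor subunit *Grik5* was higher (0.40 ± 0.11) while the GABA-A subunit *Gabrd* was lower (-0.68 ± 0.27). Without S1/2-/- ZT16 replicate 2 the median of this list was 0.04. The list of glycolysis and citric acid cycle genes had a median of -0.03 with 12 of 29 higher.

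**Figure D4:**
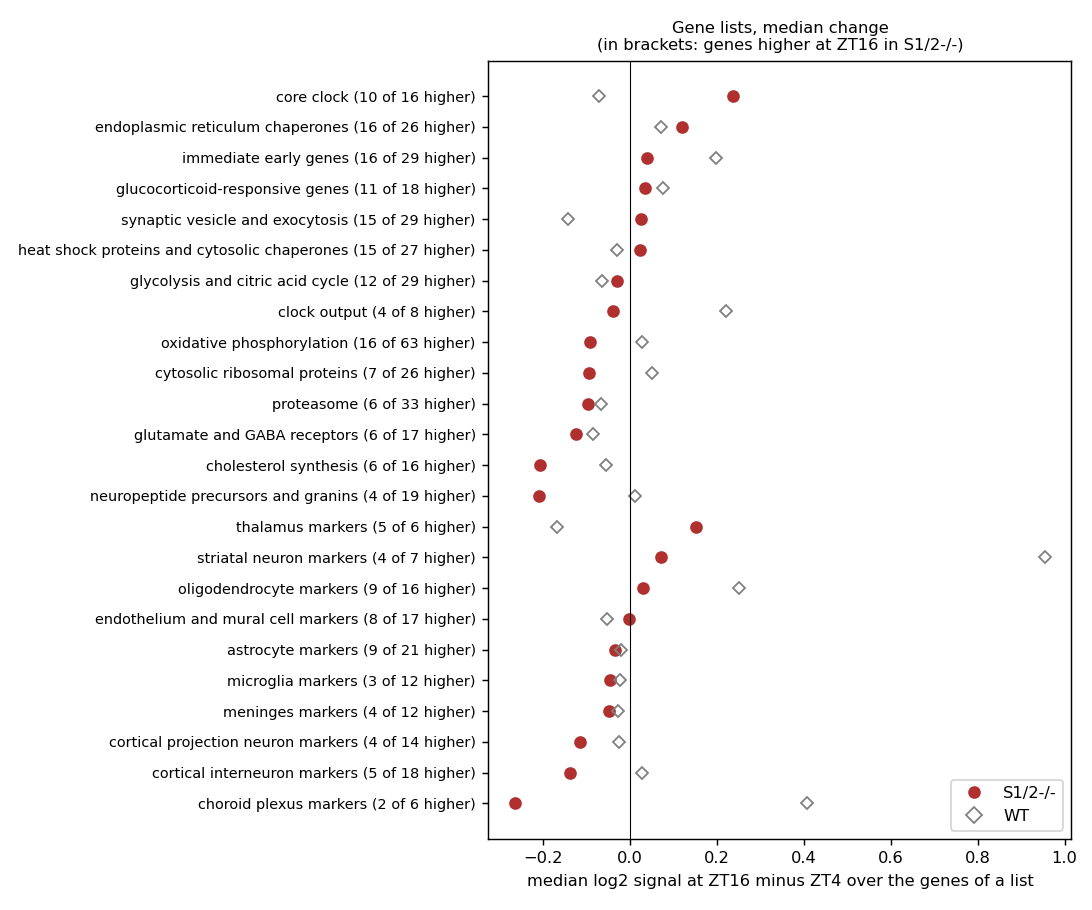
Median log2 change at ZT16 minus ZT4 (horizontal axis) over the genes of each list with at least 5 tested genes, filled circles for S1/2-/- and open diamonds for WT cortex, with the number of genes higher in S1/2-/- cortex in brackets. The core clock list lies highest in S1/2-/- cortex (0.24), and neuropeptides, cholesterol synthesis and choroid plexus markers lowest.

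Markers of cells that a cortical block can hold besides cortical cells differed between single arrays. In bulk tissue, fewer cells of a type and less RNA per cell cannot be told apart. The haemoglobin genes *Hba-a1* and *Hbb-b2* were lower at ZT16, with 6204 and 3173 at ZT4 and 2515 and 2168 at ZT16 for *Hba-a1* and 1221 and 713 against 286 and 356 for *Hbb-b2* (log2 -0.93 ± 0.40 and -1.55 ± 0.41). Their summed signal was 7424 and 3886 at ZT4 and 2802 and 2524 at ZT16, and 2620 to 6669 on the WT arrays. Of the other 3 blood genes on the array 0 passed the intensity filter.

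Choroid plexus markers had 6 tested genes of 18 on the array, with a summed signal of 5162 and 4021 at ZT4 and 3323 and 3598 at ZT16. *Ttr*, the transthyretin gene that defines this epithelium, gave 1456 and 146 at ZT4 and 102 and 150 at ZT16, so that its value of -1.90 ± 0.89 came from ZT4 replicate 1, and it was -0.24 without that array. In WT cortex the log2 change of *Ttr* was 3.91. *Kl*, another defining marker below the filter, gave 178, 12.1, 12.4 and 13.1 on the same arrays. *Folr1*, also below the filter, gave 116, 124, 23.3 and 31.5 on its brighter probe set, high in both ZT4 arrays. Its dimmer probe set gave 29.9, 27.7, 25.9 and 47.5. *Igf2*, shared with meninges, gave 1648 and 1593 at ZT4 and 1303 and 1323 at ZT16 (-0.30 ± 0.12; WT 0.35). ZT4 replicate 1 was thus highest of these arrays for blood, *Fos*, *Nr4a1* and *Dusp1*. It was also highest for *Ttr*, *Kl* and the summed choroid plexus signal, which includes *Ttr*, but not for *Folr1*. The part of this array's tissue makeup in the values above was not tested.

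Striatal neuron markers, 7 tested of 11 on the array, had a median change of 0.07 in S1/2-/- cortex and of 0.95 in WT cortex. Leaving out S1/2-/- ZT16 replicate 2 turned the former to -0.23, and leaving out ZT4 replicate 2 raised it to 0.27. Their summed signal was 14490 and 21571 at ZT4 against 13064 and 19246 at ZT16 in S1/2-/- cortex, so that replicate 2 lay above replicate 1 at both times and the times overlapped. *Penk* gave 7651 and 11608 at ZT4 and 5828 and 9833 at ZT16, *Tac1* gave 674 and 1047 against 513 and 915, and *Drd2*, the dopamine D2 receptor gene, gave 475 and 718 against 499 and 756. On the WT ZT4 arrays the sum was 8794 and 9072, below all 4 S1/2-/- arrays.

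Oligodendrocyte markers had a median of 0.03 (-0.01 after median centring) with 9 of 16 higher (WT 0.25, 15 of 16 higher). An unadjusted p under 0.05 was reached by 2 in the higher direction (12.5%, against 4.48% of all genes). In the lower direction 1 reached it (6.25%, against 2.88%). *Anln*, an actin-binding protein gene of myelin, gave 498 and 428 at ZT4 and 628 and 680 at ZT16 (log2 0.50 ± 0.16, adjusted p = 0.539; WT 1.21), *Sox10*, the lineage factor gene, gave 772 and 791 at ZT4 and 1042 and 1017 at ZT16 (0.40 ± 0.14), and *Mobp* was lower as given above. The summed signal of the list, 40200 and 39877 at ZT4 and 36931 and 39855 at ZT16, exceeded the WT sums of 26036 to 34014 on all 4 arrays.

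Interneuron markers were lower in 13 of 18 genes, with a median of -0.14 (WT 0.03). *Cort*, *Vip*, *Npy*, *Cck* and *Sst*, all lower, also count among the neuropeptide genes above, as do the striatal markers *Penk*, *Tac1* and *Pdyn*. *Gad1*, the main GABA-synthesizing enzyme gene, gave 8811 and 9435 at ZT4 and 7794 and 8160 at ZT16 (-0.19 ± 0.08), and *Calb1*, calbindin, had -0.27 ± 0.11. Projection neuron markers had a median of -0.11 (-0.012 without S1/2-/- ZT4 replicate 1) with 10 of 14 lower, and *Nrgn*, neurogranin, was higher (0.34 ± 0.14). Astrocyte, microglia, endothelial and meningeal markers had medians of -0.03, -0.05, -0.0018 and -0.05. Among endothelial genes the glucose transporter gene *Slc2a1* (0.42 ± 0.14) and endoglin, *Eng* (0.46 ± 0.15), were higher without overlap. Thalamus markers had a median of 0.15 over 6 genes, hypothalamus markers of 0.37 over 3 and hippocampus markers of 0.09 over 3, and 0 genes of these lists reached an unadjusted p under 0.05.

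**Figure D5:**
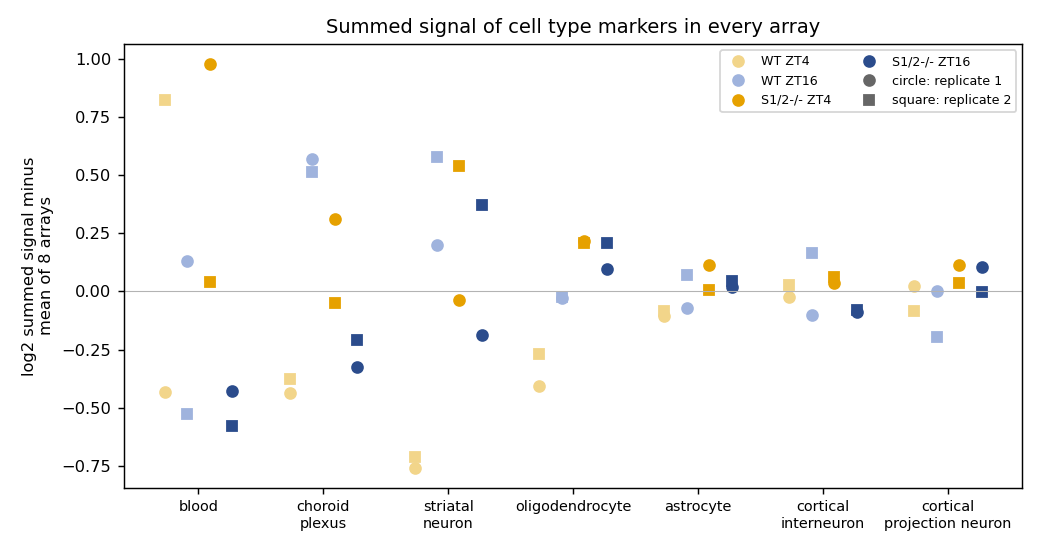
Log2 of the summed signal of each marker list minus its mean over the 8 arrays (vertical axis), WT in pale and S1/2-/- in dark colours, ZT4 in yellow and ZT16 in blue, circles for replicate 1 and squares for replicate 2. S1/2-/- ZT4 replicate 1 is the highest array for blood (7424), and replicate 2 is the higher of both S1/2-/- pairs for striatal markers.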

How the data were processed

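Biotin-labelled cRNA from cortex was hybridised to Affymetrix MG-U74Av2 arrays, 1 per sample, 8 in all. The authors deposited linear MAS5 signal intensities, and the 2% trimmed mean of every array was 500 with medians of 186 to 206. The MAS5 version was not given in the sources used here. Of 12488 probe sets, 66 controls were left out. Of the other 12422, 10833 carried 1 gene symbol in the platform annotation, 396 several and 1193 none. Signals were floored at 1 (64 values lay below), converted to log2 and kept where their mean log2 reached its 40th percentile (7453 probe sets). limma 3.58.1 (R 4.3.3) fitted 4 group means over all 8 arrays with an intensity trend (4 residual and 6.02 prior degrees of freedom), and p-values were adjusted by Benjamini-Hochberg over all tested probe sets. The fit was tested on simulated data. The change in WT and its difference from that in S1/2-/- mice came from the same fit. Scaling to a common level hides any change of total RNA.

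Named genes were taken from the 12 higher and 12 lower probe sets of lowest p over 1.5-fold and the 8 and 8 of lowest p with a geometric mean signal over 1000. Others came from genes with 2 probe sets agreeing at an unadjusted p under 0.05, tested clock genes, up to 4 members of each list, and genes that the study names. Not every gene that met these rules is given in the text. A gene in a list was counted once, by its brightest probe set. Members and lists were chosen with earlier results of these data known. Alternatives were other filters and scalings, an offset of 16, no trend, the S1/2-/- arrays alone, the ordinary ANOVA, a replicate block, averaged probe sets and leaving out each array. Replicate numbers did not pair samples: deviations of same-numbered arrays correlated at -0.00135 to 0.0982.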

Additional observations from a re-analysis of the deposited data

How the results depend on the processing

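No probe set was called in S1/2-/- cortex under any alternative except without S1/2-/- ZT4 replicate 1 or S1/2-/- ZT16 replicate 2, so that leaving out 1 array gave 0 to 1. The looser rule gave 129 higher and 81 lower, 281 and 223 with no intensity filter, 54 and 34 with the 60th percentile filter, 63 and 51 by the ordinary ANOVA, and 93 to 247 and 79 to 124 when 1 array was left out. With the replicate block it gave 130 and 84, and the difference from WT had 2 calls in place of 0. Leaving out 1 array gave 0 to 17 calls for that difference (17 without WT ZT16 replicate 1), and 3 when S1/2-/- ZT4 replicate 2 was left out. The lone array left in a group is then assumed to vary like the others. Of 2237 alternative values of 133 named genes, 27 turned their sign, all of the genes named next. *Rgs16* was -0.0029 after median centring, and *Wee1* -0.017 after quantile normalization and -0.028 after median centring. When 1 array was left out, log2 values ranged from -0.42 to 0.21 for *Dbp*, -0.49 to 0.30 for *Nr1d1*, -0.37 to 2.18 for *Npas2*, -0.13 to 0.013 for *Clock*, -0.19 to 0.0685 for *Cry2*, -0.12 to 0.062 for *Rora*, -0.10 to 0.19 for *Rgs16*, -0.24 to 0.053 for *Noct*, -0.34 to 0.067 for *Nampt*, -0.082 to 0.30 for *Ppargc1a*, -0.10 to 0.14 for *Wee1*, -0.29 to 0.56 for *Fos*, -0.60 to 0.42 for *Nr4a1*, -0.54 to 0.14 for *Dusp1*, -0.69 to 0.061 for *Penk*, -0.71 to 0.12 for *Tac1* and -0.23 to 0.37 for *Drd2*. Of 24 list medians, 12 kept 1 sign throughout. Those that turned were of clock output, immediate early, glucocorticoid, heat shock, synaptic vesicle and receptor genes and of striatal, oligodendrocyte, astrocyte, microglia, endothelial and meningeal markers. The 2 arrays per group and, for dim probe sets, a signal close to background limit the precision.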
